A study of Arabidopsis thaliana with 18 samples.

Results

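The late embryogenesis abundant (LEA) protein family of Arabidopsis thaliana was followed in seeds. The family was taken as 51 loci picked by a list of locus identifiers, out of 32833 genes in the count table. The rule itself uses no measured value, but the list was chosen with earlier results of these data known. Seeds were of the wild type Col-0, of mkk3-1, a mutant of the mitogen-activated protein kinase kinase gene MKK3, and of mpk7_ko3, a mutant of the mitogen-activated protein kinase gene MPK7. All seeds had just been harvested, and each genotype was sampled dry and after 6 h on wet filter paper (imbibed), which gives 6 groups of 3 libraries. Each mutant is 1 line, and the labels do not say how its allele was made or whether the libraries of a group came from separate plants or seed lots. The p-values therefore measure only the spread between these libraries, which may be technical. The RNA came from whole seeds, in which fewer cells of a type and less RNA per cell cannot be told apart.

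LEA proteins accumulate late in seed maturation, as the embryo loses water, and are mostly small, very hydrophilic proteins that lack a fixed fold until they dry or meet a membrane. They are thought to protect membranes, enzymes and the glassy state of the dry cytoplasm, and many are also made in leaves under drought, cold or abscisic acid. In the embryo their genes are switched on by abscisic acid and the maturation regulators, among them ABI3 and the basic leucine zipper factor ABI5, which binds abscisic acid response elements in their promoters. Transcripts left from maturation are stored in the dry seed and are in large part broken down after imbibition.

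The 51 members were sorted into 9 classes by their known protein domains. LEA_4 had 18 members, the dehydrins 10, the seed maturation proteins (SMP) 6, LEA_3 4, LEA_1, LEA_2 and PvLEA18 3 each, and LEA_5 (EM1 and EM6, the relatives of the wheat Em protein) and AtM (M10 and M17) 2 each. The proteins encoded by the RefSeq annotation of TAIR10.1 had a median length of 176 residues, against 348 for 27367 nuclear protein-coding genes. Their median hydropathy on the Kyte-Doolittle scale, where lower is more hydrophilic, was -0.978 against -0.294. It lay below -1 in 25 of 51 members (49.0%) and in 3.54% of all proteins. Dehydrins were at the hydrophilic end, with 9 of 10 below -1, and LEA_2 stood apart with a median of 0.0563.

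The promoters are shown because most members carry the element that abscisic acid signalling uses. In the 250 bases before the annotated gene start, the core of the abscisic acid response element (ABRE, ACGTG on either strand) was found in 36 of 51 members (70.6%), against 21.8% of 32546 nuclear genes. At least 2 separate ABRE cores were found in 23 members (45.1%) and in 4.49% of all promoters. The drought and cold element (DRE, CCGAC on either strand) was found in 18 members (35.3%) against 11.7%, and the RY element of maturation genes (CATGCA on either strand) in 9 members (17.6%) against 8.78%. Overlapping matches to one element were counted as 1 site, and each count is a description of the letters in this window only. The windows of 13 members ran into another annotated gene, and those of RAB18 and AT5G27980 lay wholly within one. The 6 promoters below (RefSeq TAIR10.1, written on the strand of the gene, ABRE and DRE letters in capitals) belong to members that the results turn on: a pair of LEA_4 genes with large falls on imbibition, EM6, the dehydrin LTI30 with the largest fall, SAG21, which rose, and COR15A, which was nearly silent in every group. AT3G15670 (chr3:5310989-5311238, minus strand) held 3 ABRE cores and 1 DRE, AT4G36600 (chr4:17263314-17263563, plus strand) 5 ABRE cores and 1 DRE, and EM6 (chr2:16780369-16780618, minus strand) 2 ABRE cores. LTI30 (chr3:18940429-18940642, plus strand, the 214 bases outside the gene next to it) held 3 DRE and no ABRE core, SAG21 (chr4:1047106-1047355, minus strand) held none of the 3 elements, and COR15A (chr2:17712331-17712580, minus strand) held 1 ABRE core and 2 DRE.
AT3G15670: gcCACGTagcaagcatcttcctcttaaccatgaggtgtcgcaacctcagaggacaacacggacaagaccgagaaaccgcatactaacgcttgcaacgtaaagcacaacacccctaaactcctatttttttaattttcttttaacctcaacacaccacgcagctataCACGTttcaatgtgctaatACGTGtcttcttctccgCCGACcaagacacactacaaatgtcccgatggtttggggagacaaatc
AT4G36600: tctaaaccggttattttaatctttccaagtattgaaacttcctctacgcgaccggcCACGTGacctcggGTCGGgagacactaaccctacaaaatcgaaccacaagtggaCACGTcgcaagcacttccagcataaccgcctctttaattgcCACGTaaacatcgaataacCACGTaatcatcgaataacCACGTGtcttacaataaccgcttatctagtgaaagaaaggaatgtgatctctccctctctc
EM6: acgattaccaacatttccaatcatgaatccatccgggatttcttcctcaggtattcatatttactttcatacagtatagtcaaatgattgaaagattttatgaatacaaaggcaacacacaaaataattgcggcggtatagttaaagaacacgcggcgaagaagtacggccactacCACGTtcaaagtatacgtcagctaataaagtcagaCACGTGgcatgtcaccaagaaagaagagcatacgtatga
LTI30: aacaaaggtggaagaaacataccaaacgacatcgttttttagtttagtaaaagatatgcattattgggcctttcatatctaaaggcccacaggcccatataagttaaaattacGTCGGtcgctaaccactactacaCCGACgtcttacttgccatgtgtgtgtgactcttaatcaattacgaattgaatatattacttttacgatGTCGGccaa
SAG21: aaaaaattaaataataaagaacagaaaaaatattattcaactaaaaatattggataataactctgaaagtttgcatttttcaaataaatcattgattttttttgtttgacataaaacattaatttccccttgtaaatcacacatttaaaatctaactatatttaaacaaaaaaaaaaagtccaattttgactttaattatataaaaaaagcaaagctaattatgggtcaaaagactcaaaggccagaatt
COR15A: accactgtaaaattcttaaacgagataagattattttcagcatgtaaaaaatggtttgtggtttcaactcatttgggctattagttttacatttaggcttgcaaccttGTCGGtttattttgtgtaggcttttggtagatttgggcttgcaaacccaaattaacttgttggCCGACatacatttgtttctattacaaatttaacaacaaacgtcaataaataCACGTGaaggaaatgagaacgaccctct

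The 18 libraries held 18249333 to 21036275 counts. On the first principal component (78.9% of the variance) dry and imbibed libraries separated. Replicate 3 of mpk7_ko3 stood apart from the other mpk7_ko3 libraries in both states, with a chi-square per degree of freedom of 22.4 and 34.9 dry and 19.9 and 25.2 imbibed. Replicates 1 and 2 of mpk7_ko3 were at 13.1 dry and 9.77 imbibed. Dry Col-0 was uneven too, with replicate 1 at 22.1 against replicate 2 and 13.9 against replicate 3. The lowest value within a group was 7.22. The checks of the mutated genes used CPM, counts scaled to a common library size with edgeR's TMM factors, which set aside the few very abundant seed transcripts. MPK7 was lower in mpk7_ko3 than in Col-0 in dry seeds (14.7 against 41.3 CPM, adjusted p = 1.32e-08) and in imbibed seeds (12.9 against 35.2 CPM, adjusted p = 1.13e-08). MKK3 was lower in dry mkk3-1 (7.36 against 17.4 CPM, adjusted p = 4.43e-07). It was 11.8 against 13.3 CPM in the imbibed libraries labelled mkk3-1 (adjusted p = 0.307), so MKK3 counts do not tell those libraries from Col-0. Seed storage and oil body genes, the embryo's defining products, summed to 34240 to 103100 CPM over all libraries, endosperm markers to 2977 to 24100 CPM and seed coat markers to 3.45 to 7.24 CPM.

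LEA transcripts held a large share of all counts in dry seeds, and that share was much smaller after 6 h of imbibition. In dry Col-0 the 51 genes took 10.11%, 9.09% and 9.29% of the counts of the 3 libraries, and in imbibed Col-0 they took 3.14%, 3.38% and 2.93%. The share was 8.68%, 9.45% and 8.95% in dry mkk3-1 and 3.17%, 2.56% and 3.04% imbibed. It was 9.91%, 8.88% and 7.69% in dry mpk7_ko3 and 2.66%, 3.12% and 3.15% imbibed. In each genotype every dry library lay above every imbibed one, and the exact permutation p was 0.1, the smallest that 3 against 3 libraries allow. Between genotypes the shares overlapped in both states, with exact permutation p-values of 0.4 and 0.5 for each mutant against Col-0, dry and imbibed.

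The classes did not give up the same part of their share. In Col-0, the LEA_4 class went from 2.96% to 0.844% of the counts, the dehydrins from 2.60% to 0.611% and LEA_5 from 1.27% to 0.342%. The pair M10 and M17 kept most of its share, with 0.765% dry and 0.622% imbibed. The small PvLEA18 and LEA_3 classes were at 0.0650% and 0.00659% dry and at 0.0683% and 0.0141% imbibed.

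**Figure D1:**
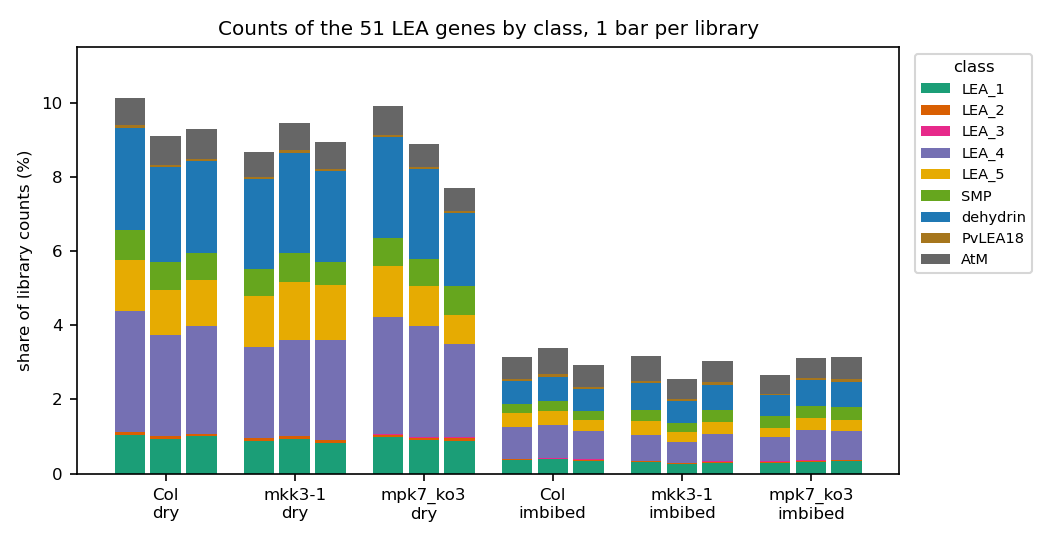
Share of library counts (%, vertical axis) held by the 51 LEA genes, 1 stacked bar for each of the 18 libraries, colours giving the class. Dry bars reach 7.69% to 10.11% and imbibed bars 2.56% to 3.38%, with the LEA_4 and dehydrin segments shrinking most in size and the AtM segment little.

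Levels of different genes were compared as TPM, counts divided by gene length and scaled to the same sum in each library. TPM carries no TMM factor, so dry and imbibed TPM do not give the tested fold changes, which are on the TMM scale. RAB18, a dehydrin long used as a marker of abscisic acid response, was the highest member in dry Col-0, at 25646, 24612 and 23167 TPM. EM6 followed at 22170, 20026 and 19774 TPM, then AT3G15670 at 14316, 12098 and 12545 TPM and M10 at 8227, 7768 and 8338 TPM. These 4 neighbours in the order did not overlap, and together they made 50.0% of the family's TPM. ECP31, an SMP first named in embryogenic carrot cells, at 7001, 6872 and 6837 TPM, and the LEA_1 gene LEA4-5, at 6903, 6250 and 6701 TPM, came next and overlapped each other, as did LEA4-2 and the dehydrin LEA after them. Of the 50 genes with the highest TPM in dry Col-0, 12 were LEA genes, and of the 10 highest, 3.

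The order was different after imbibition. In imbibed Col-0, M17 (5462 TPM), RAB18 (5242 TPM) and M10 (5183 TPM) led with overlapping libraries, and EM6 followed at 4721 TPM. AT3G15670 moved from behind EM6 to behind AT3G17520 (1966 TPM), with which it overlapped. In dry mkk3-1, EM6 (25158 ± 1050 TPM, SD, 3 libraries) and RAB18 (23813 ± 715 TPM) overlapped at the top. In dry mpk7_ko3 RAB18 (21506 ± 3500 TPM) and EM6 (17639 ± 4130 TPM) overlapped, the wide spread coming with replicate 3, which was lowest for both. RAB18 and M10 led in both imbibed mutants, at 6146 and 6056 TPM in mkk3-1 and at 5591 and 6178 TPM in mpk7_ko3.

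**Figure D2:**
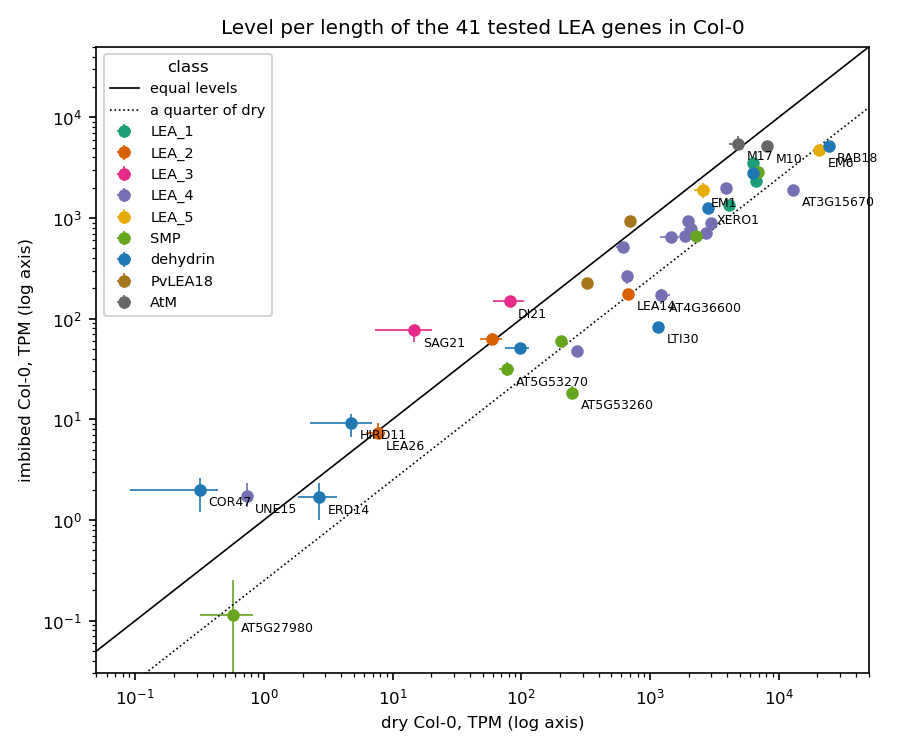
Mean TPM of the 41 tested LEA genes in dry (horizontal) and imbibed (vertical) Col-0 seeds, log axes, coloured by class, with bars for the range of 3 libraries. Points on the solid line have equal levels, and the dotted line marks a level 4-fold lower than dry. RAB18 moved from 24475 to 5242 TPM, M17 lay near the solid line and SAG21 above it. TPM carries no TMM factor, so the solid line is not the zero of the tests, in which M17 was called lower.

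Of the 51 members, 41 passed the filter on low counts and were tested among 17758 genes. On imbibition of Col-0, 35 of these 41 fell and 2 rose (edgeR's quasi-likelihood test, adjusted p under 0.05), where 36.1% of all tested genes fell and 38.8% rose (74.9% either way). The median log2 fold change of the tested members was -1.92 and that of all tested genes 0.0641. Without TMM, on library totals, the median of all genes was 0.659 and that of the members -1.32. A change of scaling moves every gene alike, so the distance between these medians, 1.98 with TMM, does not test the scaling. Markers of embryo storage also fell (9 of 9 genes, median log2 fold change -1.36, in Col-0), so the decline was not seen in LEA genes alone. Endosperm markers (3 genes, ZOU at 0 in every imbibed Col-0 library) summed to 17520 to 24100 CPM dry and 5117 to 6951 CPM imbibed. This sum is nearly all EPR1, which fell (log2 fold change -1.74, adjusted p = 1.96e-09), while EXPA2 rose from 1.32 to 12.9 CPM (3.25, adjusted p = 0.000935). Green tissue markers (5 genes) summed to 38.9 to 47.1 CPM dry and 117 to 142 CPM imbibed, of which RBCS1A rose from 28.6 to 108 CPM (1.92, adjusted p = 3.71e-09) and LHCB5 fell from 6.34 to 0.504 CPM (-3.64, adjusted p = 3.71e-07). Their part in the LEA result was not tested.

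By class, all 6 tested SMP genes fell (median log2 fold change -2.51), as did all 3 LEA_1 genes (-2.25), both LEA_5 genes (-2.04), all 3 LEA_2 genes (-0.81) and both AtM genes (-0.98). Of 13 tested LEA_4 genes 12 fell (median -2.14), and of 8 tested dehydrins 6 fell and 1 rose (median -1.79). PvLEA18 had 1 fall among 2 tested genes and LEA_3 had 1 rise among 2.

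The largest falls were those of LTI30, a dehydrin induced by cold that binds membranes, and of the SMP gene AT5G53260. LTI30 was at 1099, 1006 and 956 CPM in the dry Col-0 libraries and at 42.3, 48.1 and 41.8 CPM in the imbibed ones. Its level was 23.2-fold lower after 6 h (log2 fold change -4.53 ± 0.154, SE, adjusted p = 1.11e-15). AT5G53260 went from 126, 116 and 121 CPM to 5.06, 4.68 and 6.20 CPM, a log2 fold change of -4.51 ± 0.167 (adjusted p = 2.98e-15). For neither gene did any dry library come near an imbibed one.

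The LEA_4 genes AT4G36600, AT3G15670 and AT2G18340 came next. AT4G36600 was at 1890, 1352 and 1332 CPM dry and at 147, 131 and 103 CPM imbibed in Col-0 (log2 fold change -3.58 ± 0.198, adjusted p = 1.08e-12). AT3G15670 was at 14137, 11001 and 11206 CPM dry and at 1149, 1117 and 915 CPM imbibed (-3.51 ± 0.161, adjusted p = 6.06e-14). AT2G18340 was at 435, 361 and 367 CPM dry and at 41.9, 42.3 and 38.7 CPM imbibed (-3.24 ± 0.122, adjusted p = 3.73e-15). The dry and imbibed libraries of all 3 genes were far apart.

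Among the most abundant members, RAB18 went from 27038, 23894 and 22095 CPM to 3031, 3371 and 2924 CPM in Col-0 (log2 fold change -2.97 ± 0.169, adjusted p = 1.74e-12). The Em genes differed in the size of their fall. EM6 went from 15454, 12855 and 12468 CPM to 1991, 1956 and 1608 CPM (-2.88 ± 0.198, adjusted p = 3.4e-11). EM1 went from 2613, 1823 and 2075 CPM to 928, 1129 and 782 CPM (-1.20 ± 0.209, adjusted p = 2.83e-05). Both fell in every pairing of dry and imbibed libraries, EM6 7.34-fold and EM1 2.29-fold; the difference between them was not tested.

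ECP31 was at 7510, 6788 and 6634 CPM dry and at 1711, 1804 and 1623 CPM imbibed (log2 fold change -2.03 ± 0.118, adjusted p = 2.39e-12), and LEA4-5 at 6035, 5031 and 5299 CPM dry and at 1150, 1240 and 1042 CPM imbibed (-2.25 ± 0.132, adjusted p = 2.75e-12). M10 was at 4795, 4169 and 4396 CPM dry and at 1712, 1736 and 1649 CPM imbibed (-1.39 ± 0.111, adjusted p = 3.73e-10). M17 was at 4522, 5138 and 5315 CPM dry and at 3044, 4048 and 3064 CPM imbibed (-0.56 ± 0.163, adjusted p = 0.00421). Dry and imbibed libraries did not overlap for any of these genes. On library totals the change of M17 was 0.03 (adjusted p = 0.847), so its fall rests on the TMM scaling.

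The members that rose in Col-0 were SAG21 and COR47. SAG21, a small LEA_3 protein imported into mitochondria and linked to leaf senescence and oxidative stress, was at 6.85, 17.5 and 14.2 CPM dry and at 45.9, 30.7 and 45.5 CPM imbibed (log2 fold change 1.65 ± 0.294, adjusted p = 3.65e-05). COR47, a dehydrin of cold and drought, had 3, 15 and 14 counts dry and 37, 69 and 80 counts imbibed (1.89 ± 0.671, adjusted p = 0.0151). Every imbibed library lay above every dry one for both genes, but COR47 was near the limit of counting and its call was lost without dry replicate 1 (adjusted p = 0.0713), without imbibed replicate 3 (0.0538) and with DESeq2 (0.0506). SAG21 shares 180 bases with an untested gene annotated on the same strand.

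Not called in Col-0 were DI21, a drought-induced LEA_3 gene (log2 fold change 0.13), the dehydrin HIRD11 (0.23), UNE15 (0.48) and AT2G23110 (-0.31). These rest on the TMM scaling. On library totals DI21 (0.72, adjusted p = 1.9e-05), HIRD11 (0.82, 0.00787) and UNE15 (1.07, 0.00238) were called higher, and AT2G23110 turned to 0.29 (adjusted p = 0.0678). Among the rare members, ERD14 fell from 2.87 to 1.09 CPM (-1.40 ± 0.484, adjusted p = 0.0131). AT5G27980 fell from 4, 11 and 7 counts to 3, 0 and 1 counts (-2.96 ± 0.938, adjusted p = 0.00762). It overlaps AT5G27990 on the other strand over 218 bases, and since the sources used here do not say whether counting used strand, its counts cannot be assigned with certainty.

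The fall on imbibition was also measured in each mutant, with libraries of its own. In mkk3-1, 34 members fell and 1 rose (against 35.8% and 37.5% of all tested genes, 73.3% either way), with a median log2 fold change of -2.05 against 0.0477 for all genes. In mpk7_ko3, 35 fell and 3 rose (against 34.9% and 37.6%, 72.5% either way), with a median of -2.01 against 0.0585. The 34 members that fell in mkk3-1 fell in all 3 genotypes. COR47 was the member that rose in all 3, and DI21 and UNE15 were called in none.

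The largest falls in mkk3-1 were those of AT5G53260 (log2 fold change -4.32 ± 0.165), LTI30 (-4.20 ± 0.151), AT4G36600 (-3.99 ± 0.203), AT3G15670 (-3.73 ± 0.163) and AT5G27980 (-3.44 ± 0.966). In mpk7_ko3 they were those of AT5G53260 (-4.45 ± 0.166), AT5G27980 (-4.22 ± 1.20), LTI30 (-4.01 ± 0.15), AT3G15670 (-3.40 ± 0.16) and AT4G36600 (-3.31 ± 0.196). The place of AT5G27980 in both orders rests on very few reads. It was at 0, 0.43 and 0.96 TPM in dry mpk7_ko3 and at 0, 0 and 0.08 TPM in imbibed mpk7_ko3, and these libraries overlapped. In mkk3-1 it was at 0.61, 0.75 and 0.53 TPM dry and at 0.16, 0.09 and 0 TPM imbibed. LTI30 was at 864, 1207 and 914 CPM dry and at 56.6, 42.9 and 62.4 CPM imbibed in mkk3-1, and at 1166, 936 and 1141 CPM dry and at 70.7, 59.6 and 71.0 CPM imbibed in mpk7_ko3. AT5G53260 ended at 5.38 to 6.03 CPM in mkk3-1 and at 5.33 to 5.89 CPM in mpk7_ko3, the same low level as in Col-0.

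SAG21 had the largest difference in response between mkk3-1 and Col-0 among the members. In mkk3-1 it was at 22.4, 9.99 and 20.0 CPM dry and at 15.2, 17.3 and 21.8 CPM imbibed (log2 fold change 0.05 ± 0.291, adjusted p = 0.89), so dry and imbibed libraries overlapped. In mpk7_ko3 it was at 8.20, 6.60 and 13.4 CPM dry and at 23.9, 24.8 and 16.1 CPM imbibed (1.19 ± 0.308, adjusted p = 0.00171), with no overlap. The test of the difference between mkk3-1 and Col-0 in this response gave -1.61 ± 0.413 with adjusted p = 0.127 (unadjusted p = 0.000884). That difference was thus not called with all libraries, and leaving out 1 library at a time gave a call in 1 of 18 cases. The case was that of dry replicate 2 of mkk3-1, the lowest of its group (adjusted p = 0.0424). The difference also passed without the low-count filter (0.00229). It passed too when the replicate 3 libraries of mpk7_ko3, dry and imbibed, were dropped (0.0381), a choice made once values were known. The call therefore depends on the setting.

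HIRD11, a small histidine-rich dehydrin, rose in mpk7_ko3 from 2.14, 2.13 and 2.03 CPM to 4.66, 4.31 and 3.64 CPM (log2 fold change 1.00 ± 0.286, adjusted p = 0.0038). COR47 rose in mkk3-1 (2.45 ± 0.726, adjusted p = 0.00488) from 3, 4 and 13 counts to 51, 44 and 68 counts. In mpk7_ko3 COR47 had 15, 1 and 1 counts dry and 40, 6 and 53 imbibed (1.81 ± 0.775, adjusted p = 0.0417). These libraries overlapped, and the call was lost without dry replicate 2 (adjusted p = 0.155) or 3 (0.157) or imbibed replicate 1 (0.0946) or 3 (0.17). The fall of AT5G27980 in mpk7_ko3 was lost without dry replicate 3 (0.0569).

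For the whole family, no member was called in the test of a different response to imbibition, in mkk3-1 (0.124% of all genes called, 0.0788% in the higher direction) or in mpk7_ko3 (0.00563%). At an unadjusted p under 0.05 there were 2 members in mkk3-1, SAG21 and ECP31, and 4 in mpk7_ko3, LTI30, ECP31, M10 and LEA14, where 8.8% and 7.66% of all tested genes passed that threshold. DESeq2 called 0 members in either test (0.907% and 0.327% of all tested genes).

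**Figure D3:**
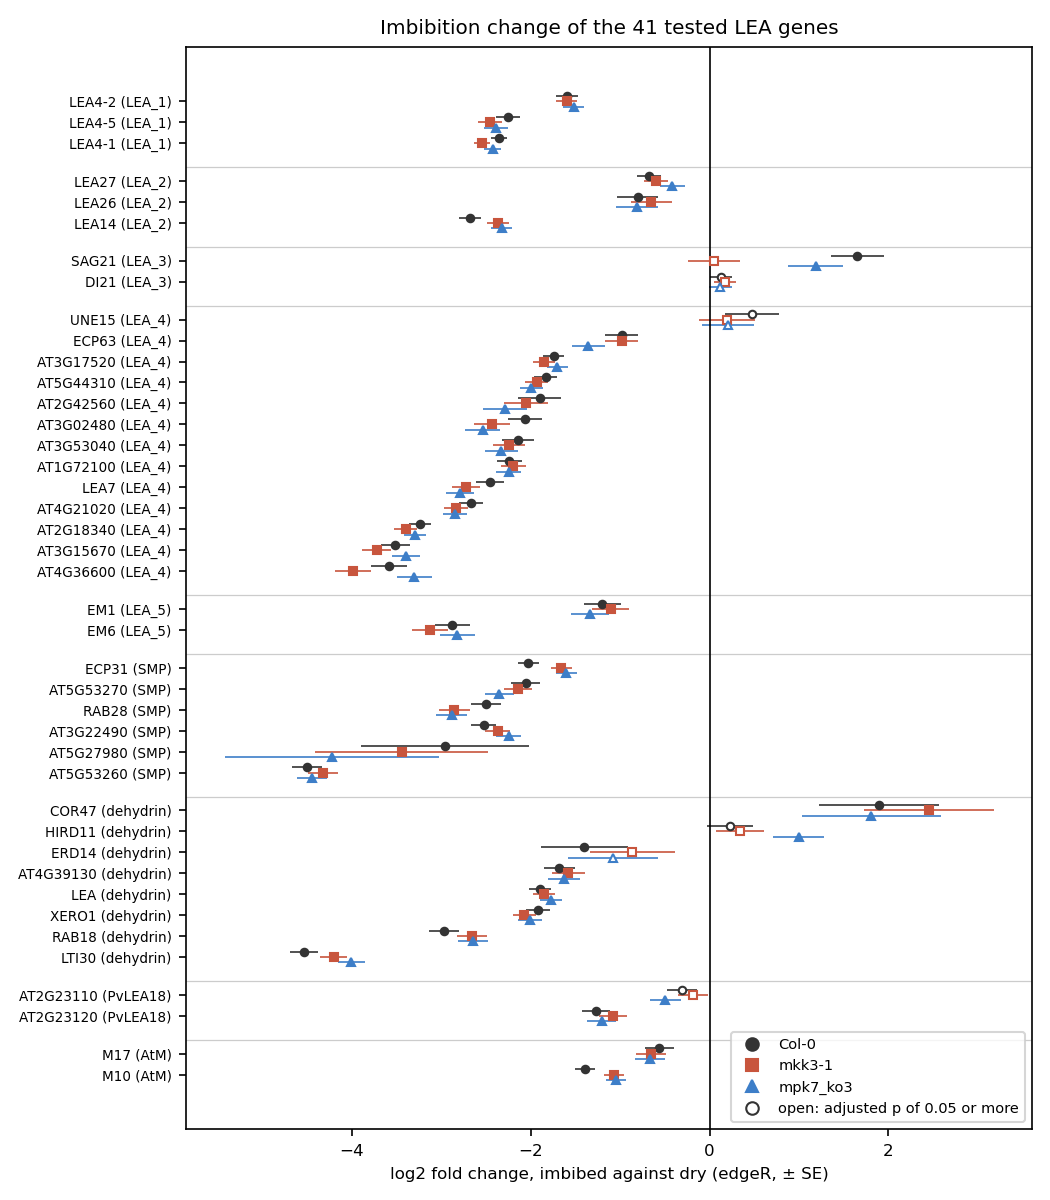
Log2 fold change of the 41 tested LEA genes, imbibed against dry (horizontal axis, edgeR estimate ± SE), in Col-0, mkk3-1 and mpk7_ko3, with genes grouped by class and open symbols for adjusted p of 0.05 or more. Most genes lie between -1 and -4.53 in all 3 genotypes, and SAG21 is at 1.65 in Col-0 and 0.05 in mkk3-1.

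The promoter elements can be set beside these changes. Of the tested members with 2 or more ABRE cores, 21 of 21 fell in Col-0 (median log2 fold change -2.35). With 1 or more, 29 of 32 fell (median -2.06), the others being HIRD11, AT2G23110 and DI21. With none, 6 of 9 fell (median -0.81), and SAG21 and COR47, the members that rose, were in this set with UNE15. With a DRE, 16 of 17 fell (median -2.14), against 19 of 24 without one (-1.76). With an RY element, 7 of 8 fell (-1.79), against 28 of 33 without one (-2.06). In mpk7_ko3 HIRD11, which has an ABRE core, rose. Absence of the ABRE core did not mark the genes with small falls throughout, since LTI30, with 3 DRE and no ABRE core, had the largest fall. Of all 41 tested members, 35 fell in Col-0. Outside the family, 52.4% of 979 tested genes with 2 or more cores fell in Col-0 (median -0.39), 41.6% of 4040 with 1 or more and 34.0% of 13559 genes with none (median 0.12). With a DRE 40.5% of 2346 genes fell, against 35.0% of 15253 without one. With an RY element 40.6% of 1275 genes fell, against 35.4% of 16324 without one.

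Several members sit side by side on a chromosome, and the ratio of their levels was not the same dry and imbibed. LTI30 and the dehydrin XERO1 lie 313 bases apart on chromosome 3, on the same strand. The log2 ratio of LTI30 to XERO1 in TPM was -1.32, -1.18 and -1.40 in dry Col-0 and -4.01, -3.80 and -3.95 in imbibed Col-0. In the imbibed mutants it lay between -3.64 and -3.28 in mkk3-1 and between -3.65 and -3.30 in mpk7_ko3, and no Col-0 library overlapped these.

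The SMP genes AT5G53260 and AT5G53270, 596 bases apart on chromosome 5, changed order. AT5G53260 was the higher in dry Col-0 (log2 ratio 1.48, 1.87 and 1.71) and the lower after imbibition (-1.11, -0.74 and -0.46), and the means were 1.37 and -0.78 in mkk3-1 and 1.35 and -0.76 in mpk7_ko3. M17 and M10, 1998 bases apart on chromosome 2, drew level in Col-0, where the log2 ratio of M17 to M10 went from -0.76 to 0.06. In imbibed mpk7_ko3 it was -0.69, -0.71 and -0.55 and in imbibed mkk3-1 -0.12, -0.52 and -0.58, in both below all 3 imbibed Col-0 libraries. AT2G23110 gained on AT2G23120, 475 bases away, from 1.09 to 2.05 in Col-0, and AT3G22490 was at -1.61 dry and -2.10 imbibed relative to ECP31, 781 bases away. These are gene pairs of one class each, and the sources used here do not say how reads matching more than one gene were counted, so part of a ratio may come from shared reads.

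**Figure D4:**
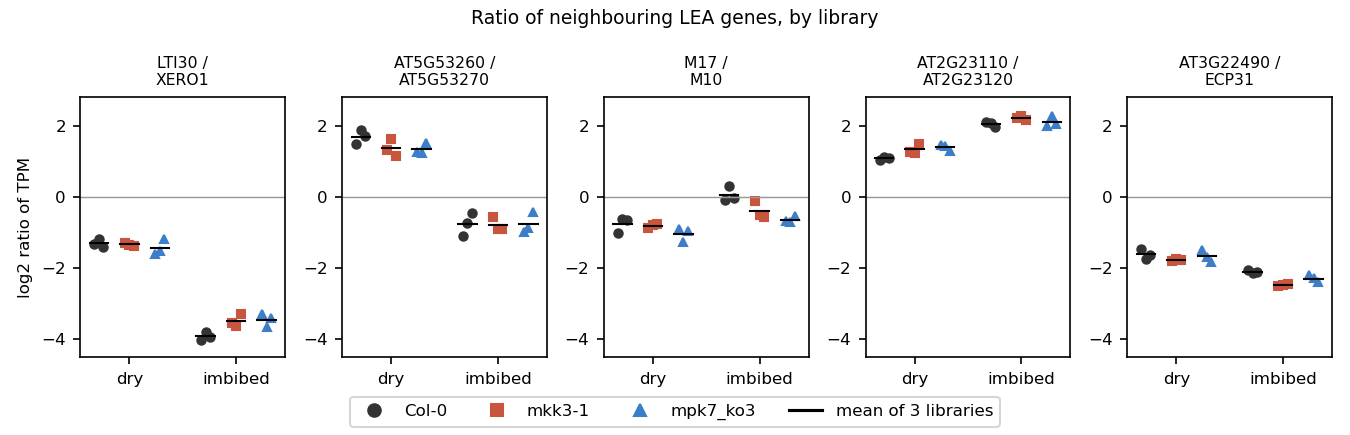
Log2 ratio of TPM (vertical axis) for 5 pairs of neighbouring LEA genes in each library, dry at left and imbibed at right, with lines for the mean of 3 libraries. The mean LTI30 to XERO1 ratio in Col-0 is -1.30 dry and -3.92 imbibed, and AT5G53260 passes from above to below AT5G53270.

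Against Col-0, the LEA transcripts called in mkk3-1 were lower, and fewer were called in dry than in imbibed seeds. In dry seeds 2 of 41 tested members were lower and 0 higher (against 1.4% and 0.687% of all tested genes). The fitted change was negative for 36 of 41 members (87.8%) and for 50.5% of all tested genes, with medians of -0.20 and -0.0026. At an unadjusted p under 0.05, edgeR had 0 members higher and 9 lower (6.77% and 8.51% of all tested genes), and DESeq2 called 0 higher and 2 lower (1.32% and 2.34%). All 13 tested LEA_4 genes and all 8 dehydrins were on the negative side (medians -0.25 and -0.18), while EM6 was at 0.24 (adjusted p = 0.592). The sums of 2 marker lists were lower too. Endosperm markers summed to 11370 to 12830 CPM in dry mkk3-1 and to 17520 to 24100 CPM in dry Col-0, and storage genes to 61870 to 73070 and 83190 to 103100 CPM. The endosperm list has 3 genes, of which ZOU was at 0 in dry mkk3-1, and in Col-0 its sum is nearly all EPR1. Of its 2 tested genes 1 was called lower, and of the storage list 2 of 9 genes were. Of 4 tested seed coat and 4 tested green tissue markers 0 were called. Their part in the LEA result was not tested.

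The genes called were AT4G39130, a dehydrin, and AT3G02480, a short LEA_4 gene. AT4G39130 was at 58.9, 35.7 and 48.3 CPM in dry Col-0 and at 24.6, 31.0 and 21.3 CPM in dry mkk3-1 (log2 fold change -0.89 ± 0.174, adjusted p = 0.00858). AT3G02480 was at 356, 326 and 316 CPM in Col-0 and at 161, 223 and 188 CPM in mkk3-1 (-0.80 ± 0.185, adjusted p = 0.0241). No library overlapped for either gene. No member was called, however, without replicate 1 of dry Col-0 or replicate 1 or 3 of dry mkk3-1, and 1 was called without replicate 2 or 3 of dry Col-0.

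In imbibed seeds 10 members were lower in mkk3-1 and 0 higher (against 4.32% and 3.63% of all tested genes), with a median of -0.25 against -0.016 for all genes. At an unadjusted p under 0.05 there were 3 higher and 15 lower in edgeR (9.7% and 11.7% of all tested genes), and DESeq2 called 0 higher and 10 lower (4.94% and 5.13%). The 10 were made up of 5 of 13 tested LEA_4 genes, 2 of 3 LEA_1 genes and 1 gene each of the LEA_3, SMP and dehydrin classes. All 13 LEA_4 genes again had a negative change (median -0.40), whereas the SMP genes were split evenly (median -0.02). Endosperm markers summed to 2977 to 3354 CPM in imbibed mkk3-1 and to 5117 to 6951 CPM in imbibed Col-0, storage genes to 34240 to 44360 and 41640 to 45740 CPM. Called lower were 1 of 2 tested endosperm markers, 2 of 9 storage genes, 1 of 4 green tissue markers and 0 of 4 seed coat markers. Their part was not tested.

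AT3G02480 had the largest difference, at 83.8, 88.8 and 65.9 CPM in imbibed Col-0 and at 39.7, 25.5 and 40.4 CPM in imbibed mkk3-1 (log2 fold change -1.18 ± 0.193, adjusted p = 0.000623). SAG21 was lower in every mkk3-1 library than in every Col-0 library (-1.17 ± 0.278, adjusted p = 0.0113), at the values given above. The same was true of AT4G36600, at 69.4, 51.7 and 94.8 CPM in mkk3-1 (-0.82 ± 0.184, adjusted p = 0.00739).

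AT4G39130 was at 15.7, 15.1 and 13.8 CPM in imbibed Col-0 and at 10.14, 7.95 and 7.59 CPM in imbibed mkk3-1 (-0.79 ± 0.188, adjusted p = 0.0112). RAB28, an SMP gene responsive to abscisic acid, was at 22.5, 22.9 and 21.3 CPM and at 16.7, 12.1 and 14.6 CPM (-0.62 ± 0.172, adjusted p = 0.0293). The other 5, AT3G15670, LEA4-5, AT4G21020, AT2G18340 and LEA4-1, were 1.26-fold to 1.47-fold lower, again with no overlap between libraries (adjusted p from 0.0214 to 0.0451). How many of the 10 were called rested on single libraries: it was 1 without replicate 1 of imbibed Col-0, 4 without replicate 2 and 6 without replicate 3, and 3 without replicate 2 and 4 without replicate 3 of imbibed mkk3-1. AT3G02480 was called in each of these. SAG21 was lost without replicate 1 or 3 of imbibed Col-0 or replicate 1 of imbibed mkk3-1 (adjusted p from 0.0544 to 0.0707). A fit to the imbibed libraries of the 2 genotypes alone called 16 lower and 3 higher. The share of all genes called in that fit is not given here, so these counts have no background to be read against.

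In mpk7_ko3, dry seeds had 2 members lower than Col-0 and 0 higher (against 2.11% and 0.653% of all tested genes), with a median of -0.09 for the members and 1.75e-05 for all genes. At an unadjusted p under 0.05, edgeR had 1 higher and 5 lower (7.26% and 9.58% of all tested genes), and DESeq2 called 0 higher and 2 lower (1.5% and 2.87%). HIRD11 was at 2.47, 6.82 and 5.01 CPM in dry Col-0 and at 2.14, 2.13 and 2.03 CPM in dry mpk7_ko3 (log2 fold change -1.19 ± 0.291, adjusted p = 0.0307). DI21 was at 53.9, 85.8 and 63.6 CPM and at 54.0, 44.0 and 45.2 CPM (-0.51 ± 0.125, adjusted p = 0.0316), with 1 library overlapping. Both calls were lost without replicate 2 or 3 of dry Col-0, without replicate 2 or 3 of dry mpk7_ko3, and without replicate 3 of mpk7_ko3 in both states, where 1 other member was instead called higher.

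In imbibed mpk7_ko3, 3 of 41 tested members were higher than in Col-0 and 4 were lower. These are 7.32% and 9.76% of the members, against 5.12% and 4.72% of all tested genes. They are too few to be read as a result about the family. The median was -0.17 for the members and -0.0068 for all genes. Green tissue markers summed to 66.3 to 86.3 CPM in imbibed mpk7_ko3 and to 117 to 142 CPM in imbibed Col-0, with RBCS1A lower (log2 fold change -0.84, adjusted p = 0.00282). Storage genes summed to 40570 to 57860 and 41640 to 45740 CPM, with 2 of 9 higher, OLEO1 (0.57, adjusted p = 0.00627) and CRB (0.78, adjusted p = 0.0466). Endosperm markers summed to 5785 to 9034 and 5117 to 6951 CPM, with EPR1 at 0.28 (adjusted p = 0.277) and EXPA2 at -1.26 (adjusted p = 0.243). The part of these markers was not tested. LTI30 was at 70.7, 59.6 and 71.0 CPM, above all 3 Col-0 libraries (log2 fold change 0.61 ± 0.137, adjusted p = 0.00742). LEA14, a LEA_2 protein with a more compact fold than most LEA proteins, was at 178, 166 and 197 CPM and at 127, 135 and 128 CPM in Col-0 (0.47 ± 0.116, adjusted p = 0.013). ECP31 was at 2305, 2147 and 2476 CPM and likewise above Col-0 in every library (0.43 ± 0.114, adjusted p = 0.0197). In dry seeds the libraries of the 2 genotypes overlapped for all 3 genes.

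The lower genes in imbibed mpk7_ko3 were AT3G02480, SAG21, RAB28 and DI21. AT3G02480 was at 37.9, 33.2 and 55.8 CPM (log2 fold change -0.91 ± 0.191, adjusted p = 0.00445) and RAB28 at 11.8, 16.4 and 15.8 CPM (-0.60 ± 0.172, adjusted p = 0.0306). DI21 was at 52.2, 53.9 and 49.5 CPM, against 75.3, 69.7 and 77.4 CPM in Col-0 (-0.52 ± 0.121, adjusted p = 0.0099). SAG21 was lower by -0.91 ± 0.276 (adjusted p = 0.0398). All 4 lay below Col-0 in every library. Counts again moved with single libraries: 1 member was higher without replicate 1 or 3 of imbibed Col-0 or replicate 3 of imbibed mpk7_ko3, and 2 were lower without replicate 1 or 3 of imbibed Col-0 or replicate 1 of imbibed mpk7_ko3. The call of SAG21 was lost without any 1 of 5 libraries, replicates 1 and 3 of Col-0 and all 3 of mpk7_ko3 (adjusted p from 0.0541 to 0.143), and with DESeq2 (0.089).

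Both mutants were compared with the same Col-0 libraries, so their values are given side by side and not as independent results. In imbibed seeds the log2 fold change against Col-0 was -1.18 in mkk3-1 and -0.91 in mpk7_ko3 for AT3G02480, -1.17 and -0.91 for SAG21, and -0.62 and -0.60 for RAB28. It was -0.82 and 0.39 for AT4G36600, 0.29 and 0.61 for LTI30, and -0.17 and -0.52 for DI21.

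The direct comparison of the mutants found 1 member. AT4G36600 was at 184, 171 and 144 CPM in imbibed mpk7_ko3, above all mkk3-1 libraries and overlapping those of Col-0, and mkk3-1 was 2.31-fold lower (log2 fold change -1.21 ± 0.184, adjusted p = 0.00233, 1 of 41 members lower against 0.208% of all tested genes, and 0 higher against 0.13%, 0.338% either way). In dry seeds no member was called (against 0.766% of all genes higher and 0.445% lower in mkk3-1, 1.21% either way) by edgeR or by DESeq2 (1.57% higher and 1.86% lower), and the median was -0.13. At an unadjusted p under 0.05, 3 were higher and 4 lower (8.87% and 8.38% of all tested genes). Without replicate 3 of mpk7_ko3 in both states, 1 was higher and 3 lower in dry seeds and 2 were lower in imbibed seeds, where DESeq2 with all libraries called 3 lower and 0 higher (0.766% and 0.507% of all tested genes). The shares of all genes called without that replicate are not given here. At an unadjusted p under 0.05, edgeR had 1 member higher and 10 lower in imbibed seeds (4.57% and 6.37%).

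**Figure D5:**
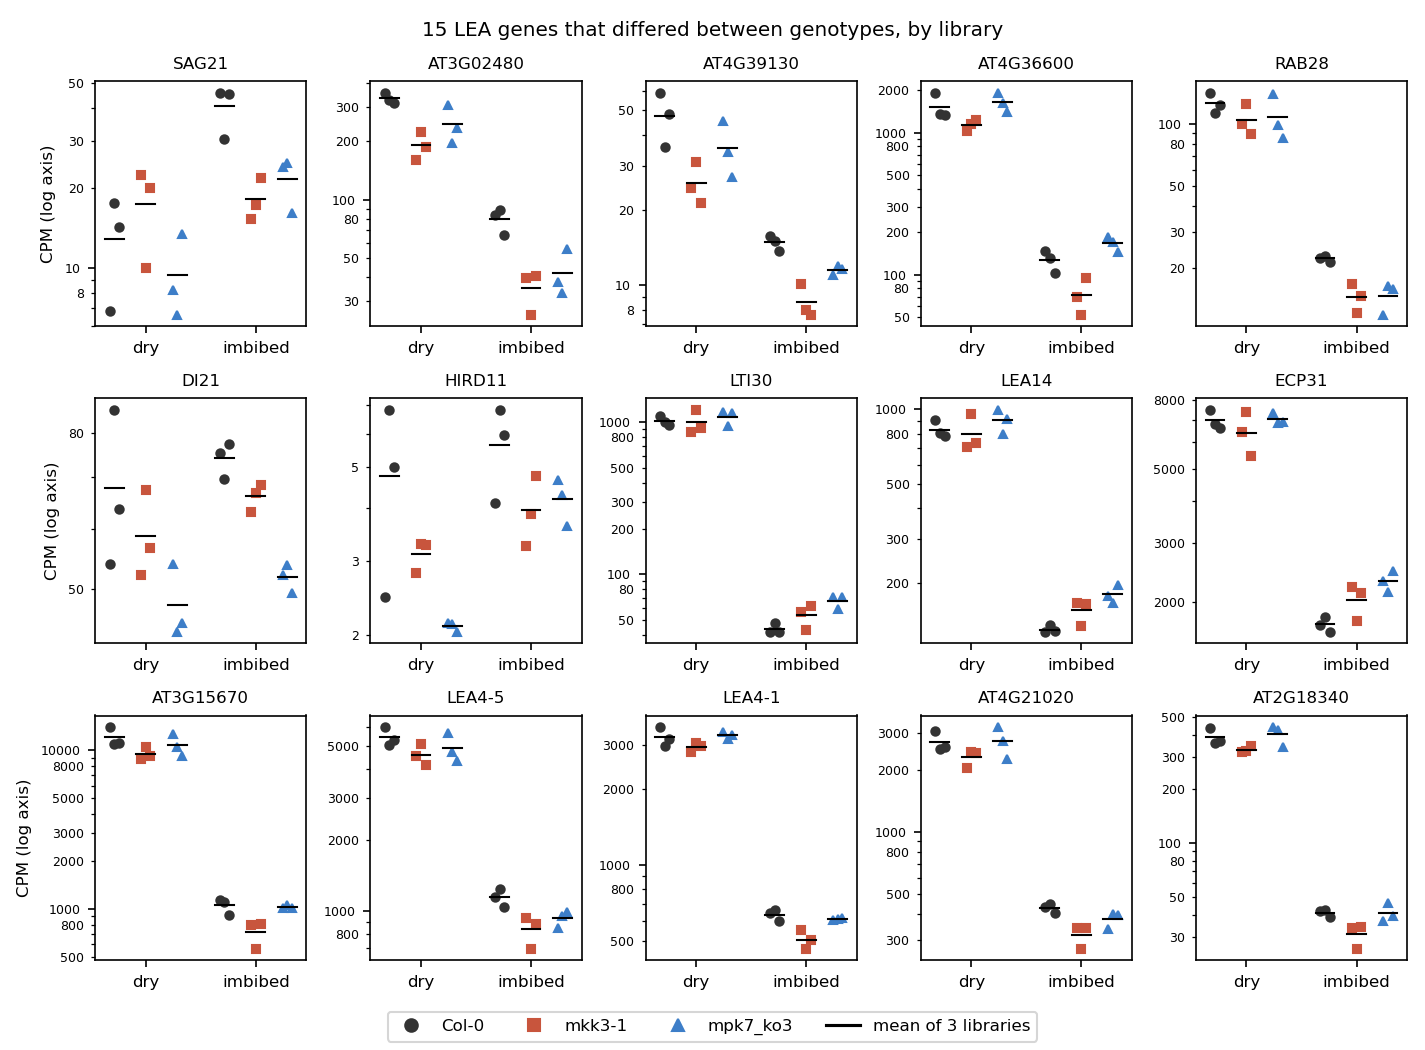
CPM (log axis) in each library for the 15 LEA genes called in at least 1 comparison between genotypes, dry at left and imbibed at right, with lines for the mean of 3 libraries. Imbibed mkk3-1 lies below imbibed Col-0 for AT3G02480, SAG21 and AT4G36600, and imbibed mpk7_ko3 lies above Col-0 for LTI30, LEA14 and ECP31.

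The Em genes, often used as a readout of ABI5 activity, were not called in either mutant. In dry mkk3-1, EM6 was at 14652, 17964 and 15399 CPM and EM1 at 1366, 1722 and 1786 CPM, with log2 fold changes against Col-0 of 0.24 ± 0.185 and -0.42 ± 0.206. EM6 libraries overlapped those of Col-0, while each EM1 library lay below the lowest Col-0 library. In imbibed mkk3-1 the changes were -0.02 for EM6 and -0.33 for EM1, and in imbibed mpk7_ko3 they were -0.17 and -0.40. RAB18 libraries of different genotypes overlapped in each state, with changes from -0.19 to 0.22.

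The 10 members removed by the low-count filter had few or no counts. COR15A and COR15B, which protect chloroplast membranes in freezing leaves and lie 7 bases apart on chromosome 2, had 3 and 9 counts in all 18 libraries together. COR15A had 1 count in dry Col-0 and 2 in imbibed mkk3-1. COR15B had 1, 6 and 2 counts in imbibed Col-0, mkk3-1 and mpk7_ko3 and 0 in dry seeds, but it overlaps AT2G42520 on the other strand over 468 bases. ERD10, a dehydrin induced by dehydration, had 27 counts in all. LEA3 had 122 counts, spread over all libraries with at most 17 in one. AT4G38410, a dehydrin-like gene, had 26 counts, all from dry seeds (11 in Col-0, 2 in mkk3-1 and 13 in mpk7_ko3). AT2G33690 and AT4G13230 had 1 count each, and AT2G03740, AT2G03850 and AT3G53770 had 0. Their promoters held an ABRE core in 4 of 10 cases, against 32 of the 41 tested members.

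Regulators of LEA genes were read from a list of 28 genes, 22 of them tested. On imbibition of Col-0, 17 fell and 5 rose, where 36.1% of all tested genes fell and 38.8% rose. ABI5 fell from 978, 913 and 976 CPM to 228, 275 and 235 CPM (log2 fold change -1.96 ± 0.109, adjusted p = 1.19e-12), and its relative EEL, which competes for the same promoter elements, fell from 143 to 54.2 CPM (-1.40 ± 0.099). ABI3 moved the other way, from 238, 197 and 223 CPM to 346, 357 and 346 CPM (0.67 ± 0.074, adjusted p = 5.44e-08). DREB2A (-3.38 ± 0.0901) and the seed heat shock factor HSFA9 (-3.18 ± 0.117) fell most among the well measured regulators.

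Between genotypes few regulators differed. In dry mkk3-1, ABI3 was at 170, 168 and 165 CPM, below all Col-0 libraries (log2 fold change -0.39 ± 0.0744, adjusted p = 0.00731), and ABI5 was at -0.03 (adjusted p = 0.928). In imbibed mkk3-1, EEL was lower (-0.55 ± 0.1, adjusted p = 0.0016), with AFP3, of the family of ABI5-binding proteins (-0.51 ± 0.153, adjusted p = 0.0422), and DREB2A was higher (0.36 ± 0.0841, adjusted p = 0.0104). In mpk7_ko3, FUS3 and HSFA9 were higher dry (0.72 ± 0.166 and 0.45 ± 0.106, adjusted p = 0.0199 and 0.0226) and imbibed (0.92 ± 0.175 and 0.89 ± 0.111, adjusted p = 0.0022 and 5.81e-05). The regulators called were thus 1 and 3 of 22 in mkk3-1, dry and imbibed, and 2 and 2 of 22 in mpk7_ko3. Over all tested genes 2.08% and 7.95% were called in mkk3-1 and 2.76% and 9.84% in mpk7_ko3.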

How the data were processed

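RNA from whole seeds was sequenced as paired ends on an Illumina instrument, per the labels. Per the submitters' processing notes, fastp 0.20.0, HISAT2 2.1.0, featureCounts 2.0.1 and DESeq2 1.34.0 were used with TAIR10; strand and multi-mapping settings are not given in the sources used here. The authors deposited whole-number counts per gene in 18 libraries, with gene lengths. Here edgeR 4.0.16 (R 4.3.3) was fitted once to all 18 libraries with 6 group means and TMM factors. Genes were kept by filterByExpr with a minimum count of 10 (17758 of 32833), and p-values were adjusted by Benjamini-Hochberg over them, with a threshold of 0.05. The fit was also run on simulated counts in which a small set of genes changed by modest factors in imbibed Col-0 only. In the real imbibition comparisons most tested genes were called, so this simulation does not test the scaling there. TPM was computed from the deposited lengths. Shares of counts were compared by exact two-sided permutation tests. DESeq2 1.42.0, other scalings and filters, and leaving out each library were alternatives.

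Promoter letters came from RefSeq TAIR10.1, where all 51 loci start and end as in the deposited table. The members and lists were chosen with earlier results of these data known. Per-library values are given for the 6 members highest in dry Col-0 by TPM, the 5 largest changes in each direction of a comparison, the EM and COR15 pairs, and ABI3, ABI5 and EEL with up to 5 other regulators. Genes named outside this rule were chosen after their values were seen.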

Additional observations from a re-analysis of the deposited data

How the results depend on the processing

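Of 2767 recomputed values, 922 of those that answer a comparison were labelled the same, 61 moved and 6 reversed. A count was the same if it was close to the main count, and a median if it moved by less than the spread between libraries. A share difference was the same if its sign held. Many of these fits left out a library outside the comparison, so the total overstates stability. Of the values for single genes 1654 kept their call, 99 lost it, 16 gained it and 9 reversed. The cause was not tested unless the setting itself (fewer libraries, a stricter threshold) shows it. On imbibition of Col-0, 1 member rose with DESeq2, 5 on library totals and 1 at adjusted p below 0.01, and the median was -1.32 on library totals. In mkk3-1, 5 rose on library totals and 2 with upper-quartile factors (median -1.50 on totals), and in mpk7_ko3 5 rose on totals (median -1.45). Of 17758 tested genes, 10667 rose on totals in Col-0, 10442 in mkk3-1 and 10447 in mpk7_ko3. With upper-quartile factors 7727 rose in mkk3-1. Counts over all genes are not given here for fits to the libraries compared, stricter thresholds or fits without a replicate. For mkk3-1 against Col-0, 1 dry member was lower at adjusted p below 0.01 and 0 at 2-fold. Imbibed, 16 were lower and 3 higher in a fit to the libraries compared, 2 lower at adjusted p below 0.01 and 2 at 2-fold. For mpk7_ko3 against Col-0, dry, 0 were lower in a fit to the libraries compared, 0 at adjusted p below 0.01, 1 at 2-fold, and 0 lower and 1 higher without replicate 3 of mpk7_ko3 in both states, an alternative chosen after seeing the data. Imbibed, 1 was higher at adjusted p below 0.01 and 0 at 2-fold, and 7 were lower in a fit to the libraries compared, 2 at adjusted p below 0.01 and 0 at 2-fold. For mkk3-1 against mpk7_ko3, dry, 1 was higher and 1 lower without the low-count filter (331 and 173 of 25107 genes), and 1 and 3 without replicate 3 of mpk7_ko3. Imbibed, 1 was higher in a fit to the libraries compared, and 3 were lower with DESeq2, 2 without the filter (136 of 25107 genes) and 2 without that replicate. In the response of mkk3-1, 1 member was called lower without the filter (27 of 25107 genes) and 1 without that replicate. The difference in LEA share between dry mkk3-1 and mpk7_ko3 was 0.2 points, and -0.00274 without RAB18.

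Leaving out 1 library at a time, the members rising ranged from 1 to 3 in Col-0 and from 1 to 2 in mkk3-1. Against Col-0, those lower in mkk3-1 ranged from 0 to 3 dry and from 1 to 11 imbibed, those lower in mpk7_ko3 from 0 to 2 dry and from 2 to 4 imbibed, and those higher in imbibed mpk7_ko3 from 1 to 4. Between the dry mutants, 0 to 1 were higher and 0 to 2 lower, and in the mkk3-1 response 0 to 1 lower. The share difference between the mutants ranged from -0.370 to 0.742 dry and from -0.214 to 0.125 imbibed. With 1 library left out, the change of DI21 in Col-0 ranged from -0.020 to 0.33 that of HIRD11 in Col-0 from -0.078 to 0.59 and that of SAG21 in mkk3-1 from -0.21 to 0.26. Single genes that reversed were, on library totals, M17 in Col-0 (0.032) and AT2G23110 in Col-0 (0.29), mkk3-1 (0.37, adjusted p = 0.0233) and mpk7_ko3 (0.076), HIRD11 in Col-0 without dry replicate 1 (-0.078), DI21 in Col-0 without dry replicate 1 (-0.020), SAG21 in mkk3-1 without dry replicate 2 (-0.21) or imbibed replicate 3 (-0.11), and SAG21 in the mpk7_ko3 response without replicate 3 of mpk7_ko3 (0.068). LEA27 in mpk7_ko3 also turned on library totals, from -0.42 to 0.13 (adjusted p = 0.409). Library totals moved the median of all genes on imbibition of Col-0 from 0.0641 to 0.659, and the share of calls that were higher from 51.8% to 75.9%.

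Deviations of same-numbered libraries correlated from -0.154 to 0.278, with 12 of 45 pairs over 0.1. Between the dry and imbibed libraries of one genotype these correlations were all positive, from 0.00815 to 0.278. The main tests of imbibition did not pair libraries, and whether libraries with the same number share seeds was not tested. With the number as a replicate block shared by all genotypes, 35 members fell in Col-0, 34 in mkk3-1 and 36 in mpk7_ko3, and 8 were lower in imbibed mkk3-1 than in Col-0. This block does not model a pairing within each genotype, and counts from a fit with blocks nested in genotype are not given here. With 3 libraries a group and so few counts, differences in COR47 and AT5G27980 are at the limit of depth.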
